A study of Mus musculus with 23 samples.

Results

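Microglia that had refilled the brains of old mice after drug depletion (group O-re, 8 libraries) were compared with resident microglia of young mice (group Y, 7 libraries). These 15 libraries are all those whose group label is O-re or Y, of 23 in the study. Each was made from brain microglia of female C57BL/6 mice. Depletion was by PLX5622, an inhibitor of the colony-stimulating factor 1 receptor CSF1R, mixed into AIN-76A chow at 1200 ppm, and treatment controls ate the same chow without drug for as long. The label of the Y libraries gives young age and no repopulation, but not whether each of those mice was a diet control. Ages, the length of treatment and the time from drug withdrawal to sampling are not given in the sources used here. O-re and Y therefore differ in age, drug exposure and the origin of the cells at once, and these cannot be told apart in this comparison. The remaining 8 libraries, old resident (O, 5) and young repopulated microglia (Y-re, 3), entered the same fit and are given beside the results as values. The protocols describe dissociation of perfused brains, myelin removal and CD11b magnetic beads for one preparation, and FACS-sorted microglia as the source of the RNA. Nothing says whether a library is 1 animal, so the p-values measure the spread between these libraries only.

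Microglia are the resident macrophages of the brain and depend on signalling through CSF1R, so a CSF1R inhibitor removes most of them while it is given. After withdrawal the brain refills, mainly by division of surviving microglia, and macrophages from the blood or the brain's borders can also settle in an emptied niche. Resident microglia are recognised by genes such as P2ry12, Sall1 and Fcrls. With age and in disease, microglia are known to lower part of this programme and to raise antigen presentation, lipid handling and interferon genes.

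The expected counts of the 15 libraries summed to 43934709 to 47845321 in Y and 45726427 to 58189424 in O-re. Levels below are in CPM, a gene's counts relative to the size of its library, with library sizes scaled by edgeR's trimmed mean of M values (TMM), and fold changes are O-re over Y on the log2 scale with their standard error (SE). The library titles carry numbers from 1 to 24. The main fit and, unless stated, the alternatives had a term for the run of numbers: libraries 1 to 11 (3 Y, 5 O-re) against 12 to 24 (4 Y, 3 O-re). What the numbers stand for is not stated. All 3 Y-re libraries are in 12 to 24, so each fitted value of Y-re against Y below rests on a run term set by the other groups. A pair of libraries stood apart from their groups on principal components of all genes. Y replicate 3 lay at -185.1 on the second component (11.3% of the variance) and had the fewest genes with a count (16408). O-re replicate 1 lay at -58 on the first (21.1%), inside the Y range of -90.6 to -30.1. Counts are therefore also given without both.

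Of 18736 genes tested, 4587 (24.5%) were called different between O-re and Y (edgeR quasi-likelihood test, Benjamini-Hochberg adjusted p under 0.05): 2608 (13.9%) were higher and 1979 (10.6%) lower. With upper-quartile scaling the split turned, with 43.9% of the calls higher in place of 56.9%. At least a 2-fold change was called for 813 genes upward and 705 downward. The median over all genes was -0.02. In 184 genes (0.982%) all 8 O-re libraries lay above all 7 Y libraries, and in 235 (1.25%) all lay below. The direction was the same in both runs in 4556 of the 4587 called genes. These genes were called from both runs together, which favours a shared direction, so this count is no independent replication. The size was not shared: the median change in the called direction was 0.412 within libraries 1 to 11 and 0.84 within libraries 12 to 24. Tested within a run, 298 genes (1.59%) were called in libraries 1 to 11 and 5041 (26.9%) in libraries 12 to 24. A test of the difference between the runs called 259 genes (1.38%), a count that moved from 7 to 1260 when single libraries were left out. Without Y replicate 3 and O-re replicate 1, 6500 genes were called for O-re against Y, and without the run term 2847. Libraries 1 to 11 fitted on their own gave 3 calls.

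Markers of other myeloid cells moved with the comparison and set the frame for what follows. Of 10 monocyte markers, 8 were called higher in O-re (median 2.73), and so were 8 of 12 markers of border-associated macrophages, the macrophages of the brain's coverings and vessels (median 1.77). Over all genes 13.9% were called higher and 10.6% lower. Of the 12 border-associated macrophage markers, 4 were not called and 2 had a negative fold change. F13a1 is on both lists. Ly6c2, which marks inflammatory monocytes, lay at 0.241 to 7.76 CPM (median 0.897) in Y and 2.97 to 86.4 CPM (median 30.3) in O-re (log2 fold change 4.10 ± 0.90, adjusted p = 0.0028). Ms4a7, which marks border-associated and bone-marrow-derived macrophages, lay at 8.18 to 34.9 CPM (median 15.2) in Y and 18.7 to 202 CPM (median 128) in O-re (log2 fold change 2.74 ± 0.49, adjusted p = 0.00068). The 8 O-re libraries were unequal in this respect. Their summed monocyte markers were 228, 642, 505, 351, 1130, 2778, 1879 and 2801 TPM, the authors' length-scaled unit, in replicates 1 to 8, against 173 to 586 TPM in Y. Border-associated macrophage markers summed to 109, 831, 369, 242, 892, 1347, 930 and 1420 TPM, against 103 to 299 TPM in Y. Members of that list that did not go up with the sum were Cd163, at 2.00 to 7.94 TPM in Y and 0.50 to 5.94 TPM in O-re, and Cd209f, at 0 to 1.74 and 0 to 0.67 TPM. O-re replicates 1 and 4 lay within the Y range on both sums, and the highest Y value on both belonged to Y replicate 3. The monocyte sum holds much Fn1, fibronectin, at 88.2 to 391 TPM in Y and 81.0 to 1859.5 TPM in O-re. By the median over the monocyte markers, as log2 CPM less the mean of Y, O-re replicates 1 and 4 stood at 1.06 and 1.10, above 6 of the 7 Y libraries (-1.03 to -0.02) and below Y replicate 3 (1.74). Ly6c2 was at 7.57 and 15.7 CPM in O-re replicates 1 and 4. Ms4a7 was at 18.7 and 56.4 CPM there. Leaving out O-re replicate 5 took the monocyte markers called from 8 to 5.

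Markers of further cell types gave these sums and calls, beside 13.9% called higher and 10.6% called lower over all genes. Neutrophil markers summed to 322 to 618 TPM in Y and 304 to 994 TPM in O-re (7 of 13 higher, 1 lower), and dendritic cell markers to 188 to 261 TPM in Y and 57.6 to 226 TPM in O-re (6 of 12 higher, 1 lower). Single genes weighed heavily in these sums. Csf3r of the neutrophil list lay at 239 to 358 TPM in Y and 97.2 to 357 TPM in O-re. Fscn1 of the dendritic list lay at 165 to 245 TPM in Y and 33.4 to 159 TPM in O-re. The sums therefore do not follow most genes of their lists. The sum of lymphocyte markers, 22.5 to 29.9 TPM in Y and 2.86 to 21.1 TPM in O-re, was in Y mostly that of Cd79b, a B cell receptor chain, at 19.6 to 27.7 TPM in Y and 1.23 to 16.3 TPM in O-re. Of 10 lymphocyte markers tested, 1 was called higher and 1 lower (median 0.41). Astrocyte markers summed to 49.2 to 93.6 TPM in Y and 15.8 to 54.3 TPM in O-re (3 of 12 lower). Endothelial ones summed to 36.7 to 99.8 TPM in Y and 10.6 to 103 TPM in O-re (1 of 10 higher, 2 lower). Much of the astrocyte sum in Y was Slc1a3, at 24.3 to 71.5 TPM in Y and 1.55 to 41.1 TPM in O-re. No marker was at 0 in all 15 libraries. In sorted cells measured in bulk, fewer cells of a type and less RNA per cell cannot be told apart, and the part of these cells in the results below was not tested.

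**Figure D1:**
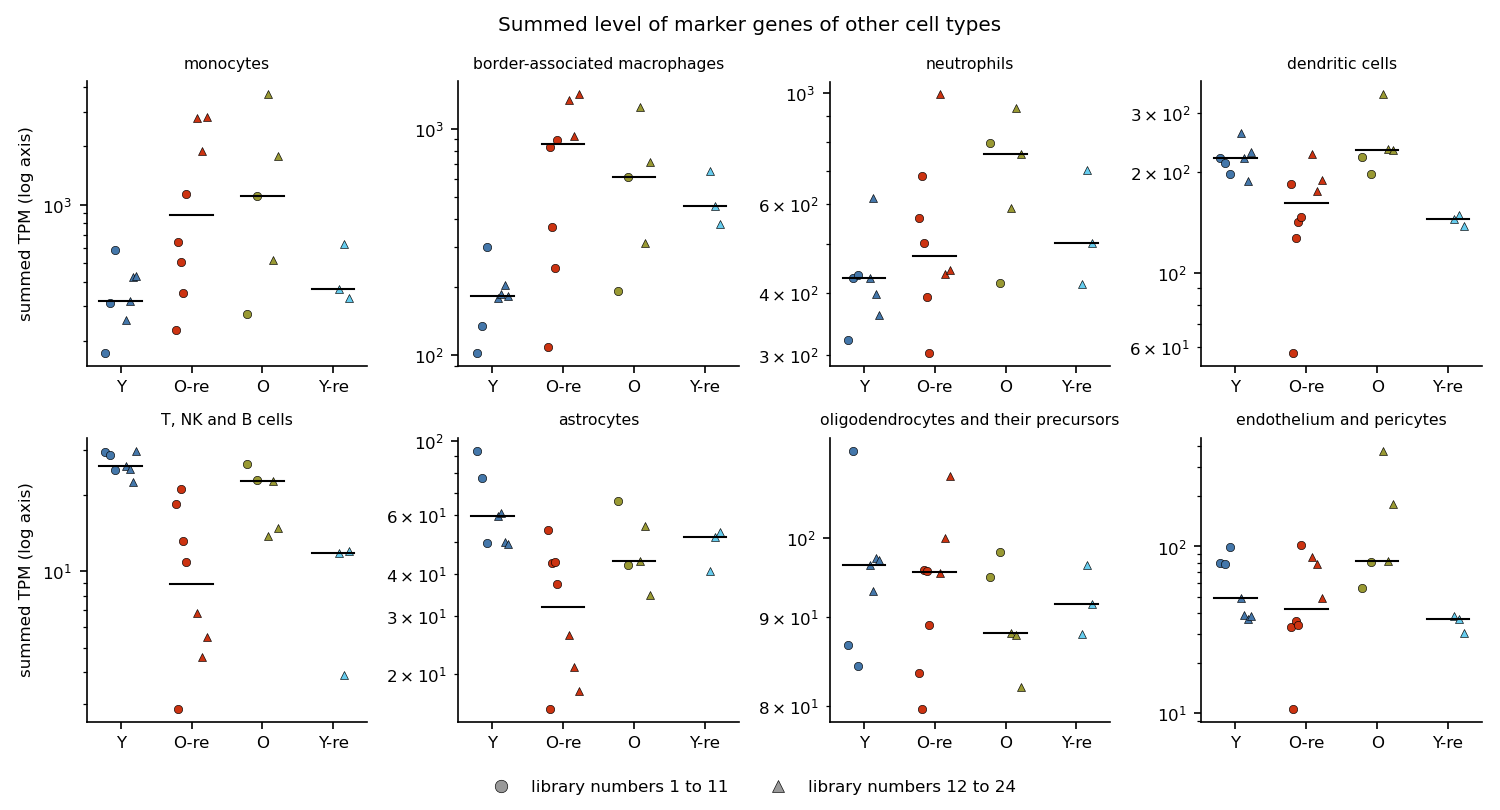
Summed TPM (log axis) of the marker genes of 8 other cell types in each library of the 4 groups. Each point is 1 library, circles are library numbers 1 to 11, triangles 12 to 24, and lines mark group medians. O-re replicates 6 to 8 hold the highest monocyte sums of O-re, 1879 to 2801 TPM, while O-re replicates 1, 3 and 4 lie within the Y range of 173 to 586 TPM.

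Named here are the 12 largest falls that met every condition on level, run and left-out libraries, so their expression in Y followed from the choice. In 10 of them every renewed library of old mice lay below every young one, against 1.25% of all genes tested. The same choice favours groups that do not overlap. Apob, the large apolipoprotein of low-density lipoprotein particles (chr12:7977648-8016835), ranged 7.66 to 18.4 CPM (median 9.34) in Y and 0 to 2.42 CPM (median 0.688) in O-re, a log2 fold change of -4.59 ± 0.73 (edgeR adjusted p = 0.00032). Myo18b, an unconventional myosin, lay at 17.6 to 50.6 CPM (median 47.3) in Y and 0.319 to 5.91 CPM (median 0.939) in O-re (log2 fold change -4.51 ± 0.61, adjusted p = 9.9e-05). Cd5l, a secreted macrophage protein that binds lipids and apoptotic debris, lay at 61.6 to 283 CPM (median 169) in Y and 2.59 to 26.1 CPM (median 14.7) in O-re (log2 fold change -3.43 ± 0.48, adjusted p = 0.00014). In each of these all 8 O-re libraries were below all 7 Y libraries. Mdfi, an inhibitor of myogenic transcription factors, lay at 13.4 to 18.7 CPM (median 14.2) in Y and 0.668 to 4.57 CPM (median 1.90) in O-re (-3.34 ± 0.37). Rgs7bp, which anchors regulators of G protein signalling at the membrane, lay at 6.53 to 20.1 CPM (median 13.7) in Y and 0.265 to 2.99 CPM (median 1.79) in O-re (-2.74 ± 0.33). Groups did not overlap either in Khdrbs3, an RNA-binding protein (-2.99 ± 0.43), Mgll, the monoacylglycerol lipase that degrades an endocannabinoid (-2.47 ± 0.44), Tmem44 (-2.88), Tmc7 (-2.80) or Klhl3 (-2.73). Pacsin1 (-2.69) and Crybb1 (-2.66), a crystallin typical of microglia, fell with groups that overlapped.

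The other groups are set beside these falls. Against the same Y libraries, Cd5l differed by -2.68 in O and -1.99 in Y-re, and Rgs7bp by -2.35 in O and -1.25 in Y-re. For Myo18b the values were -0.58 in O and -4.73 in Y-re, for Khdrbs3 -0.17 in O and -3.45 in Y-re and for Mdfi -0.88 in O and -3.26 in Y-re. For Myo18b, Khdrbs3 and Mdfi the value of young repopulated cells lay farther from the young resident level than that of old resident cells, and for Cd5l and Rgs7bp the order was the opposite. All of these contrasts share the Y libraries.

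The largest rises started from very low levels in Y. Ctsk, the cathepsin K of bone-resorbing cells, had the largest fold change (5.28 ± 0.96, adjusted p = 0.00076) with 0.364 to 1.98 CPM (median 0.504) in Y and 0.347 to 97.1 CPM (median 21.1) in O-re. Its groups overlapped: O-re replicate 1, at 0.347 CPM, was below every Y library, and O-re replicate 4, at 1.14 CPM, was below Y replicate 3. Nt5e, the ectoenzyme CD73 that turns AMP into adenosine, lay at 0.132 to 0.977 CPM (median 0.372) in Y and 1.49 to 28.4 CPM (median 9.33) in O-re (log2 fold change 4.56 ± 0.82, adjusted p = 0.00072). Runx2, a transcription factor of the Runx family best known from bone, lay at 0.167 to 1.01 CPM (median 0.342) in Y and 1.72 to 18.6 CPM (median 9.44) in O-re (log2 fold change 4.51 ± 0.54, adjusted p = 2.9e-05). Atp8b4, a phospholipid flippase, lay at 0.550 to 2.53 CPM (median 0.936) in Y and 4.94 to 75.5 CPM (median 33.9) in O-re (4.97 ± 0.65), and Klra2, a lectin-like receptor of the Ly49 family, at 0.351 to 2.98 CPM (median 0.983) in Y and 3.63 to 64.0 CPM (median 24.3) in O-re (4.29 ± 0.75). In these 4, from Nt5e to Klra2, every O-re library was above every Y library. F10, the clotting factor X that macrophages also make, lay at 0.176 to 9.04 CPM (median 0.454) in Y and 1.22 to 172 CPM (median 27.6) in O-re (4.28 ± 1.14), and S100a6, a calcium-binding protein, at 0.438 to 6.76 CPM (median 1.52) in Y and 5.70 to 169 CPM (median 39.6) in O-re (4.26 ± 0.86). For both, the lowest O-re value was under the highest Y value, which was that of Y replicate 3. Papss2 (4.30), Slc7a2 (4.27), an arginine transporter, and Gpr171 (4.24) also overlapped. AA467197 (4.76) stands under a pair of gene identifiers with the same counts, so its own count is uncertain.

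**Figure D2:**
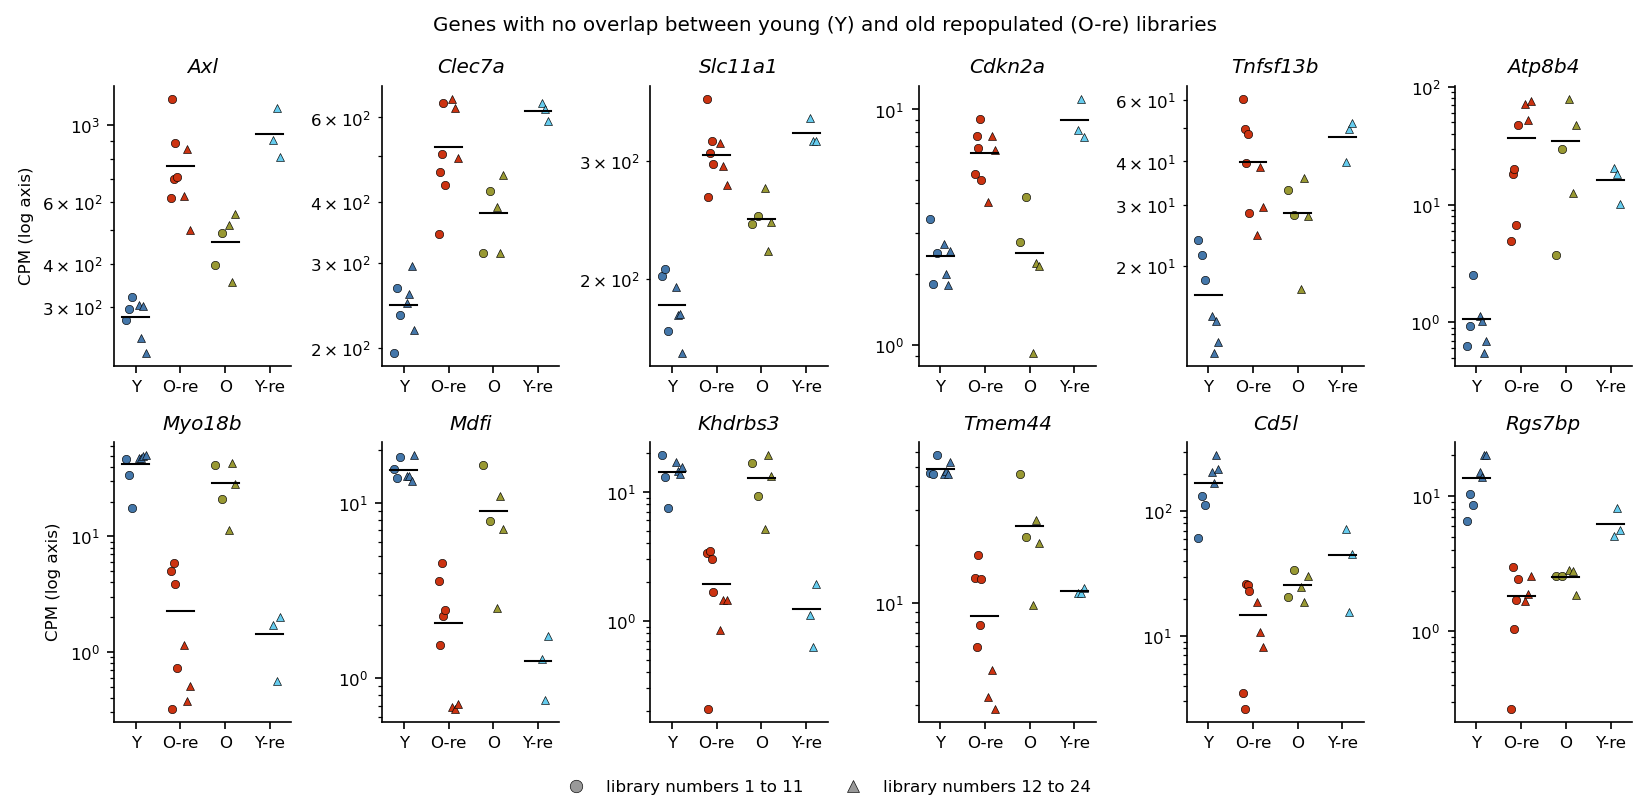
TMM-scaled CPM (log axis) of 12 genes whose Y and O-re libraries do not overlap, in each library of the 4 groups. Points are libraries (circles: numbers 1 to 11, triangles: 12 to 24) and lines mark group means. O-re lies above Y in the upper row and below Y in the lower row, and for Myo18b, Mdfi and Khdrbs3 the Y-re points lie with those of O-re.

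The programme of resident microglia was lower in the renewed cells of old mice. Of 20 homeostatic microglia genes, 18 fell (90%, against 24.5% of all genes called) and the list's median was -0.92. None rose (0 by edgeR, 0 at an unadjusted p under 0.05, 0 by DESeq2 and 0 by limma voom). P2ry12, the purinergic receptor by which microglial processes sense ADP (chr3:59216272-59262871), lay at 1298 to 2010.4 CPM (median 1804) in Y and 239 to 1947 CPM (median 527) in O-re (log2 fold change -1.52 ± 0.34, adjusted p = 0.0033). Sall1, the transcription factor that sets microglial identity apart from other macrophages, lay at 310.0 to 489.9 CPM (median 467) in Y and 36.8 to 505 CPM (median 141) in O-re (log2 fold change -1.53 ± 0.42, adjusted p = 0.011). Adgrg1, an adhesion receptor shared by microglia and neural cells, fell most on the list, with 299 to 423 CPM (median 384) in Y and 11.3 to 478 CPM (median 85.8) in O-re (-1.97 ± 0.55). O-re replicate 1 was within the Y range for P2ry12 and above it for Sall1 and Adgrg1, and the lowest value of each was in O-re replicate 6 or 8. Csf1r, the target of the drug, lay at 6386 to 7353 CPM (median 6813) in Y and 2416 to 7172 CPM (median 4160.5) in O-re, a log2 fold change of -0.84 ± 0.18 (adjusted p = 0.0024), again with O-re replicate 1 inside the Y range.

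Only Fcrls and Olfml3 of this list separated the groups completely. Fcrls, an Fc-receptor-like scavenger receptor of resident microglia (chr3:87250758-87263738), lay at 2696 to 3996 CPM (median 3650.1) in Y and 1209 to 2629 CPM (median 1536) in O-re (log2 fold change -1.04 ± 0.18, adjusted p = 0.00052). Olfml3, a secreted matrix protein, lay at 1735 to 2244 CPM (median 2122) in Y and 842 to 1710.2 CPM (median 1020.3) in O-re (log2 fold change -0.87 ± 0.18, adjusted p = 0.0017). Tgfbr1 (-0.41 ± 0.20) and Tmem119 (-0.54 ± 0.21), a membrane protein used as a microglial marker, did not pass the test. Per library, the median of the list relative to the Y mean was 0.19, -1.0, -0.41, -0.12, -1.15, -1.76, -1.10 and -1.68 in O-re replicates 1 to 8, against -0.22 to 0.12 in Y. The libraries with the lowest list medians, replicates 5 to 8 and 2, also had the highest monocyte and border-associated macrophage sums. The run term bore on the count: within libraries 1 to 11 the list's median was -0.37 and within 12 to 24 it was -1.57, and a fit without the run term called 8 of the 20 genes lower. The list medians of old resident and young repopulated microglia against Y were -0.63 and -0.11. The value of Y-re rests on the run term, as all 3 of its libraries are in 12 to 24. Relative to the Y mean, the list medians of Y-re replicates 1 to 3 were -0.35, -0.33 and -0.13. Those of Y replicates 4 to 7, of the same run, were -0.07 to 0.09.

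Fewer changes than on the homeostatic list, but more than over all genes, were called among transcription factors that build microglial identity. Of 16, 2 were called higher and 5 lower (43.8% called, against 24.5% of all genes, median -0.18). Besides Sall1, Mef2c (-0.79) and Tal1 (-0.87) fell, factors of microglial maturation and of blood cell development, while Bhlhe40, a stress-responsive repressor, rose with 15.7 to 35.5 CPM (median 27.5) in Y and 31.5 to 309 CPM (median 124) in O-re (log2 fold change 2.46 ± 0.38, adjusted p = 0.00030). Spi1, the master factor of macrophages, was at -0.09 and Irf8 at -0.21, neither past the test. Leaving out Y replicate 5, or O-re replicate 7 or 8, took the factors called lower from 5 to 3. Of 20 genes of the TGF-beta pathway, the signal that keeps microglia in their resident state, 3 were higher and 1 lower (median -0.07), a share under that of all genes.

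Antigen presentation through MHC class II was the function with the largest median difference among the 26 function lists: 8 of 11 genes rose, with a median of 3.02, and none fell (0 by edgeR, 0 at an unadjusted p under 0.05, 0 by DESeq2 and 2 by limma voom). Called genes were 72.7% of this list, against 24.5% of all genes. Class II molecules display peptides taken up from outside the cell to helper T cells. Ciita, the coactivator that switches these genes on, separated the groups, with 0.0876 to 1.26 CPM (median 0.396) in Y and 1.41 to 19.4 CPM (median 9.15) in O-re (log2 fold change 4.0 ± 0.74, adjusted p = 0.00088). H2-Aa, the alpha chain of I-A, lay at 6.09 to 106 CPM (median 15.7) in Y and 66.8 to 699 CPM (median 357) in O-re (log2 fold change 3.54 ± 0.77, adjusted p = 0.0027), and Cd74, the invariant chain that guards the peptide groove, at 34.2 to 248 CPM (median 68.6) in Y and 189 to 1471 CPM (median 755) in O-re (log2 fold change 3.02 ± 0.61, adjusted p = 0.0015). Y replicate 3 was the highest Y library for both, and the groups overlapped. H2-Eb1 (3.63) and H2-Ab1 (3.10), the beta chains, rose to a like degree, while H2-DMa (0.39) and H2-DMb2 (0.92), which load peptide, rose less. H2-DMb1 (0.21) and the inhibitory chains H2-Oa (-0.49) and H2-Ob (-0.38) did not pass. The lowest list medians of O-re relative to the Y mean were 0.84 in replicate 4, 1.10 in replicate 2 and 1.90 in replicate 1, against -0.38 to 0.31 in Y, and their monocyte marker medians were 1.10, 1.96 and 1.06. The part of other macrophages in the class II values was not tested. Old resident microglia had a list median of 3.19 and young repopulated microglia of 2.03 against the same Y libraries. MHC class I and peptide loading genes gave few calls: of 22, 1 rose and 1 fell (9.1% called, median -0.03). Psmb10 (0.38), a subunit of the immunoproteasome, was the one that rose.

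Because the class II genes and, below, the sterol genes moved together, their promoters are shown for members that rose. The windows come from RefSeq (GRCm38.p6) and run from 250 bases before to 50 bases after the start. Capitals mark CCAAT, or ATTGG where it is read on the other strand, the box bound by nuclear factor Y that both gene groups are known to use. H2-Aa is read from chr17:34287774-34288073 (minus strand), H2-Eb1 from chr17:34305617-34305916 (plus strand), Idi1 from chr13:8885356-8885655 (plus strand) and Cyp51 from chr5:4104648-4104947 (minus strand).
H2-Aa: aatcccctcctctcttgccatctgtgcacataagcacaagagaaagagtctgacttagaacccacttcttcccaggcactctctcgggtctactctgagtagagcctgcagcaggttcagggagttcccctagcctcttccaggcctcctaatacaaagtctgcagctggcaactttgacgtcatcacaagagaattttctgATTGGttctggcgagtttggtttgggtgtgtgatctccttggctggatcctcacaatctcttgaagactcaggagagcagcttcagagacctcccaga
H2-Eb1: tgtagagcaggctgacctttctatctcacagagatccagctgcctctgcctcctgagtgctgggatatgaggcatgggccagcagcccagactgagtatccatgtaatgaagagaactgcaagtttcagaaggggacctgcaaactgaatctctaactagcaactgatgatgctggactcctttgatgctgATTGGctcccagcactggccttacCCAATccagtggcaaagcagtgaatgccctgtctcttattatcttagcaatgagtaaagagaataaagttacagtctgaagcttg
Idi1: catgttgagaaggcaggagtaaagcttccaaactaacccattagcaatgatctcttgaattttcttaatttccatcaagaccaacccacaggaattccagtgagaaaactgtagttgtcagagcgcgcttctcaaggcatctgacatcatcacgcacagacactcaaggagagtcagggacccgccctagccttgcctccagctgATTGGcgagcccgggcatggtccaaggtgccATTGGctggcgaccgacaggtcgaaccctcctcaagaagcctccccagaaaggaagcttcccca
Cyp51: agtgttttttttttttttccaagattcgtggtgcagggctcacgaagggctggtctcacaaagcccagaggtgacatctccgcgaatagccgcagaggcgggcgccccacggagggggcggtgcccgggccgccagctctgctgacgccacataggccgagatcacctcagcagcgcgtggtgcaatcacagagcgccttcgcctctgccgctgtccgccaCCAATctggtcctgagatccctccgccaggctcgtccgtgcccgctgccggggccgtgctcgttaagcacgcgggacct
CCAAT on either strand was held by 37.4% of all 32851 windows, by 8 of 9 windows of the class II list (8 of its 11 genes have one) and by 16 of 20 windows of the sterol list (17 of 24 genes). All 5 called class II genes and all 6 called sterol genes with a window held it. Genes that were not called held it as well: H2-Oa, H2-Ob and H2-DMb1, and every such sterol gene with a window except Acat2. The letters therefore did not set called genes apart within these lists. The sterol response letters TCACNCCAC were in 1.24% of all windows and in 1 of the 20 of the sterol list. These are letter matches and not shown sites.

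Few interferon-stimulated genes passed the test. Of 40, 5 were called lower (12.5%, near the 10.6% of all genes) and none higher (0 by edgeR, 3 at an unadjusted p under 0.05, 1 by DESeq2 and 7 by limma voom), with a median of -0.25. limma voom turned the split, with 7 higher and 1 lower. Within libraries 1 to 11 the list median was -0.56 and within 12 to 24 it was 0.13. Gbp2, an interferon-inducible GTPase that attacks vacuoles of microbes, lay at 27.1 to 54.0 CPM (median 34.2) in Y and 11.9 to 30.9 CPM (median 22.3) in O-re (log2 fold change -0.79 ± 0.19, adjusted p = 0.0046), and Cxcl10, a chemokine that draws T cells, at 118 to 213 CPM (median 188) in Y and 37.4 to 147 CPM (median 102) in O-re (log2 fold change -0.78 ± 0.21, adjusted p = 0.011). Both were called in all 15 fits that left out 1 of the compared libraries, with groups that overlapped, but limma voom did not call Cxcl10. Stat2 and Ifit2 were called less often: of the 15 fits that left out 1 of the compared libraries, Stat2 was called in 3 and Ifit2 in 7. Old resident microglia had a list median of 0.65 against Y, and young repopulated microglia of -0.08. The windows of Gbp2 at chr3:142620413-142620712 (plus strand) and Cxcl10 at chr5:92348840-92349139 (minus strand) are shown with the letters of an interferon-stimulated response element in capitals: GAAA, any 2 bases and GAAA again, or TTTC, any 2 bases and TTTC where it lies on the other strand.
Gbp2: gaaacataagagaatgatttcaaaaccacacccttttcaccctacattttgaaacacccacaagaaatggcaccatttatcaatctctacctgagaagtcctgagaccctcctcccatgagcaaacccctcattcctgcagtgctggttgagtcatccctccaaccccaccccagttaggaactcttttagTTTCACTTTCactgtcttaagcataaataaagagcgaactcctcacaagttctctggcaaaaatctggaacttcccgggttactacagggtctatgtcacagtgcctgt
Cxcl10: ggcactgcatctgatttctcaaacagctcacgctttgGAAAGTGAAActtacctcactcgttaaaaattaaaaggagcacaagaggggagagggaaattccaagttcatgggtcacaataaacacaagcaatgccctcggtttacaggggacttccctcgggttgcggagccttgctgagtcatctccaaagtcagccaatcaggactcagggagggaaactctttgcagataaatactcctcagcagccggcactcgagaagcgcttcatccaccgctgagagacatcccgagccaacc
These letters stood in 3.44% of all windows and in 24 of 37 windows of the interferon list (32 of 40 genes).

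Sterol synthesis genes rose together in the renewed cells. Of 24 genes of the cholesterol pathway that were tested (25 listed), 12 rose (50%, against 13.9% of all genes) and none fell (0 by edgeR, 0 at an unadjusted p under 0.05, 0 by DESeq2 and 0 by limma voom), with a median of 0.33. All 8 O-re libraries had a list median above every Y library, 0.20 to 0.56 against -0.15 to 0.16. Sqle, squalene epoxidase, the first oxygen-dependent step of the pathway (chr15:59315077-59331192), lay at 2.59 to 5.23 CPM (median 4.36) in Y and 5.27 to 17.3 CPM (median 7.23) in O-re (log2 fold change 1.08 ± 0.20, adjusted p = 0.00087). Srebf2, the transcription factor that drives the pathway when sterol is low, lay at 27.2 to 39.1 CPM (median 32.7) in Y and 39.2 to 78.2 CPM (median 49.3) in O-re (log2 fold change 0.75 ± 0.12, adjusted p = 0.00031). Neither gene's groups overlapped. Idi1, isopentenyl diphosphate isomerase, lay at 4.46 to 7.02 CPM (median 6.50) in Y and 5.08 to 20.8 CPM (median 10.5) in O-re (0.94 ± 0.20), and Cyp51, lanosterol demethylase, at 14.1 to 17 CPM (median 14.9) in Y and 14.8 to 32.6 CPM (median 21.9) in O-re (0.59 ± 0.12), both with overlap. Smaller rises were seen in Sc5d (0.53), Fdps (0.50) and Msmo1 (0.38), while Hmgcs1 (0.13) did not pass. Against the same Y libraries, Sqle differed by -0.10 in O and 0.14 in Y-re, and the list medians were 0.13 in O and 0.08 in Y-re.

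In the wider list of lipid uptake, storage and efflux, 13 of the 27 genes tested were called higher and 5 lower, with a median log2 fold change of 0.50. Called genes were 66.7% of that list, against 24.5% of all genes. Acaca, the carboxylase that starts fatty acid synthesis, lay at 19.8 to 34.0 CPM (median 30.3) in Y and 38.3 to 70.7 CPM (median 51.0) in O-re (log2 fold change 0.80 ± 0.12, adjusted p = 0.00027), and Dgat1, which completes triglycerides, at 13.6 to 17.2 CPM (median 16.7) in Y and 18.5 to 41.4 CPM (median 23.9) in O-re (log2 fold change 0.76 ± 0.15, adjusted p = 0.0012), each without overlap. In the other direction Lpcat3, which puts polyunsaturated chains into membrane phospholipids and is a target of liver X receptors, was lower in every O-re library, with 83.3 to 122 CPM (median 106) in Y and 50.2 to 77.2 CPM (median 60.7) in O-re (log2 fold change -0.79 ± 0.11, adjusted p = 0.00012). Further liver X receptor targets fell, Mylip (-0.76) and Abcg1 (-0.50), whereas Nr1h3, which encodes LXR-alpha itself, rose (2.53) together with Pltp (2.10). Larger rises were seen for Pparg (2.95), a nuclear receptor for fatty acids, Cd36 (2.76), a scavenger receptor, and Fabp5 (2.23), a fatty acid carrier, all of which monocyte-derived macrophages are also known to express. Cd36 was at 13.2 CPM in O-re replicate 1 and 35.2 CPM in replicate 4, against 4.86 to 21.5 CPM (median 14.5) in Y. Leaving out O-re replicate 8 took the genes called lower from 5 to 3.

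Genes of disease-associated microglia, a state described around amyloid plaques, moved in both directions. Of 24, 9 rose and 5 fell (58.3% called, against 24.5% of all genes), with a median of 0.12. Axl, a receptor for apoptotic cells, lay at 222 to 321 CPM (median 296) in Y and 498 to 1188 CPM (median 705) in O-re (log2 fold change 1.40 ± 0.15, adjusted p = 1.2e-05), and Clec7a, the beta-glucan receptor dectin-1, at 195 to 296 CPM (median 248) in Y and 344 to 656 CPM (median 499.8) in O-re (log2 fold change 1.12 ± 0.12, adjusted p = 1.2e-05). Both were above the whole Y range in every O-re library, O-re replicate 1 at 618 and 344 CPM. Apoe, the main lipid carrier of the brain, lay at 3702 to 8916 CPM (median 7807) in Y and 6607 to 25150.0 CPM (median 15273) in O-re (log2 fold change 1.11 ± 0.30, adjusted p = 0.010), and Gpnmb, a lysosomal glycoprotein of lipid-laden macrophages, at 39.4 to 293 CPM (median 144) in Y and 93.7 to 2159 CPM (median 1236) in O-re (log2 fold change 3.02 ± 0.66, adjusted p = 0.0026), with overlap. Lgals3 (2.55), Cybb (1.92), Itgax (1.51) and Fth1 (0.94) rose as well. Other members, among them core genes of the state, did not pass: Cst7 was at 0.00 ± 0.29, Trem2, a receptor on which the state depends, at -0.42 ± 0.17, Tyrobp at 0.05, Ctsb at 0.08 and Cd9 at -0.45. Ccl4, an early chemokine of activation, was lower in all O-re libraries, with 535 to 791 CPM (median 685) in Y and 150.1 to 531 CPM (median 309) in O-re (log2 fold change -1.0 ± 0.27, adjusted p = 0.011). The count of falls was 8 without O-re replicate 4 and 3 without O-re replicate 6 or 8. Beside Y, Axl differed by 0.73 in O and 1.82 in Y-re, and Clec7a by 0.63 in O and 1.26 in Y-re.

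Uptake receptors and complement genes changed in both directions. Of 39 such genes tested (40 listed), 10 rose and 13 fell (59.0% called, against 24.5% of all genes, median -0.13). Fcgrt, the neonatal Fc receptor that recycles antibody, was lower in every O-re library, with 71.4 to 99.7 CPM (median 75.9) in Y and 33.7 to 67.0 CPM (median 52.9) in O-re (log2 fold change -0.74 ± 0.11, adjusted p = 0.00020). Mertk, the receptor for phosphatidylserine-coated debris, lay at 532 to 740.0 CPM (median 677) in Y and 235 to 658 CPM (median 437) in O-re (-0.77 ± 0.17), and its bridging ligand Pros1 also fell (-0.93). C1qa, a chain of the first complement component, lay at 3593 to 4069 CPM (median 3974) in Y and 1545 to 4169 CPM (median 2821) in O-re (-0.56 ± 0.16), and C1qc fell too (-0.59). Cd300lf, a lipid-sensing inhibitory receptor, was higher in every O-re library, with 37.9 to 81.1 CPM (median 52.6) in Y and 81.7 to 231 CPM (median 161) in O-re (log2 fold change 1.5 ± 0.29, adjusted p = 0.0011). Msr1 (1.47), a scavenger receptor, and C3 (1.39), the central complement component, rose with overlap. Without O-re replicate 8, 8 genes of the list were called lower in place of 13.

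Lysosomal genes gave 9 rises and 5 falls among 36, with a median of 0.01, so that 38.9% were called against 24.5% of all genes. Ctsl, cathepsin L, was below the Y range in every O-re library, with 2483 to 3442 CPM (median 2899) in Y and 645 to 2062 CPM (median 1421) in O-re (log2 fold change -1.15 ± 0.20, adjusted p = 0.00061). Tfe3 (-0.37), a transcription factor of lysosome biogenesis, fell. Lipa (0.60), Psap (0.51) and Npc1 (0.43) rose, which serve the breakdown and exit of cholesterol esters and glycolipids. Ctss (0.15) and Lamp1 (0.07) did not pass. The median turned to -0.07 with upper-quartile scaling, and falls numbered 3 without Y replicate 5 or O-re replicate 7 or 8, and 8 without O-re replicate 4.

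Ribosomal protein genes showed a small, shared rise that was of similar median in both runs. Of 80, 39 rose and 1 fell (50.0% called, against 24.5% of all genes). The median was 0.23, with 0.24 within libraries 1 to 11 and 0.22 within 12 to 24. With upper-quartile scaling 18 rose, and the median was 0.16. Rps19, of the small subunit, lay at 214 to 281 CPM (median 247) in Y and 298 to 394 CPM (median 348) in O-re (log2 fold change 0.47 ± 0.07, adjusted p = 0.00032), Rps16 at 238 to 327 CPM (median 265) in Y and 337 to 437 CPM (median 379) in O-re (0.44 ± 0.07), and Rpl34, of the large subunit, at 221 to 281 CPM (median 266) in Y and 284 to 379 CPM (median 334) in O-re (0.35 ± 0.07). These 3 did not overlap between groups. Per library the list median lay between -0.18 and 0.26 in Y and between 0.13 and 0.60 in O-re, with 0.32 in O-re replicate 1 and 0.37 in replicate 4. Ribosomal protein genes have many processed copies in the genome, so the split of reads by the authors' counting makes their single values uncertain. The list's medians against Y were -0.03 in old resident and 0.38 in young repopulated microglia.

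Nuclear genes of oxidative phosphorylation rose too, but less evenly: 28 of 75 were called higher and none lower (0 by edgeR, 0 at an unadjusted p under 0.05, 0 by DESeq2 and 0 by limma voom), with a median of 0.25. Cyc1, cytochrome c1 of complex III, lay at 34.9 to 45.7 CPM (median 42.4) in Y and 41.0 to 66.9 CPM (median 56.8) in O-re (log2 fold change 0.47 ± 0.10, adjusted p = 0.0024), and Atp5b, the catalytic subunit of ATP synthase, at 344 to 494 CPM (median 402) in Y and 342 to 686 CPM (median 561) in O-re (log2 fold change 0.40 ± 0.11, adjusted p = 0.015). Ndufa12 (0.53) of complex I and Cox7a2 (0.43) of complex IV rose by a like amount. The 28 called genes were 37.3% of the list, against 24.5% of all genes. The count of 28 depended on single libraries: it was 14 without O-re replicate 6, 16 without O-re replicate 8, 44 without Y replicate 3, 52 without O-re replicate 1 and 59 without both of the latter. It was 15 with upper-quartile scaling and 16 without the run term. O-re replicate 1 had a list median of -0.26, below the Y range of -0.17 to 0.20. Against Y, the list medians of O and Y-re were 0.06 and -0.12.

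In glycolysis, 8 of 30 genes rose and 5 fell (43.3% called, against 24.5% of all genes, median 0.19). Enzymes of the pathway rose modestly, Pgam1 (0.61), Hk1 (0.55), Aldoa (0.47) and Gpi1 (0.42), while Pfkfb3 (-0.52), which makes the activator of phosphofructokinase, fell. The falls were 2 or 3 in place of 5 when any of Y replicates 4 to 6, O-re replicates 1 and 5 to 8, Y-re replicate 2 or O replicates 1 and 2 was left out.

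Antioxidant defence was among the functions with the higher share of rises: 13 of 27 genes rose and 1 fell (51.9% called, against 24.5% of all genes). The median was 0.42, and 20 rose without O-re replicate 1. Gsr, glutathione reductase, lay at 19.2 to 31.7 CPM (median 22.8) in Y and 22.5 to 121 CPM (median 47.4) in O-re (log2 fold change 1.23 ± 0.28, adjusted p = 0.0039), and Txn1, thioredoxin, at 37.9 to 53.7 CPM (median 40.9) in Y and 28.5 to 149.7 CPM (median 106) in O-re (log2 fold change 1.17 ± 0.27, adjusted p = 0.0037). O-re replicate 1 was inside the Y range for Gsr and below it for Txn1. Slc7a11 (2.62), the cystine importer, Srxn1 (0.86), Prdx1 (0.84) and Gclm (0.73) rose as well. Nqo1 (1.64) and Nfe2l2 (0.02) did not pass, a quinone reductase and the factor NRF2 that controls such genes. In iron handling, 9 of 18 genes rose and 3 fell (66.7% called). Slc11a1, the phagosomal metal exporter NRAMP1, was higher in every O-re library, with 155 to 207 CPM (median 177) in Y and 265 to 371 CPM (median 302) in O-re (log2 fold change 0.73 ± 0.08, adjusted p = 1.1e-05). Slc40a1, ferroportin, the only known iron exporter of cells, lay at 73.4 to 133 CPM (median 114) in Y and 12.6 to 89.2 CPM (median 28.3) in O-re (log2 fold change -1.66 ± 0.34, adjusted p = 0.0018). The ferritin chains Fth1 (0.94) and Ftl1 (0.69), which store iron, and Hmox1 (0.89) and Blvrb (0.80), which act in heme breakdown, rose.

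**Figure D3:**
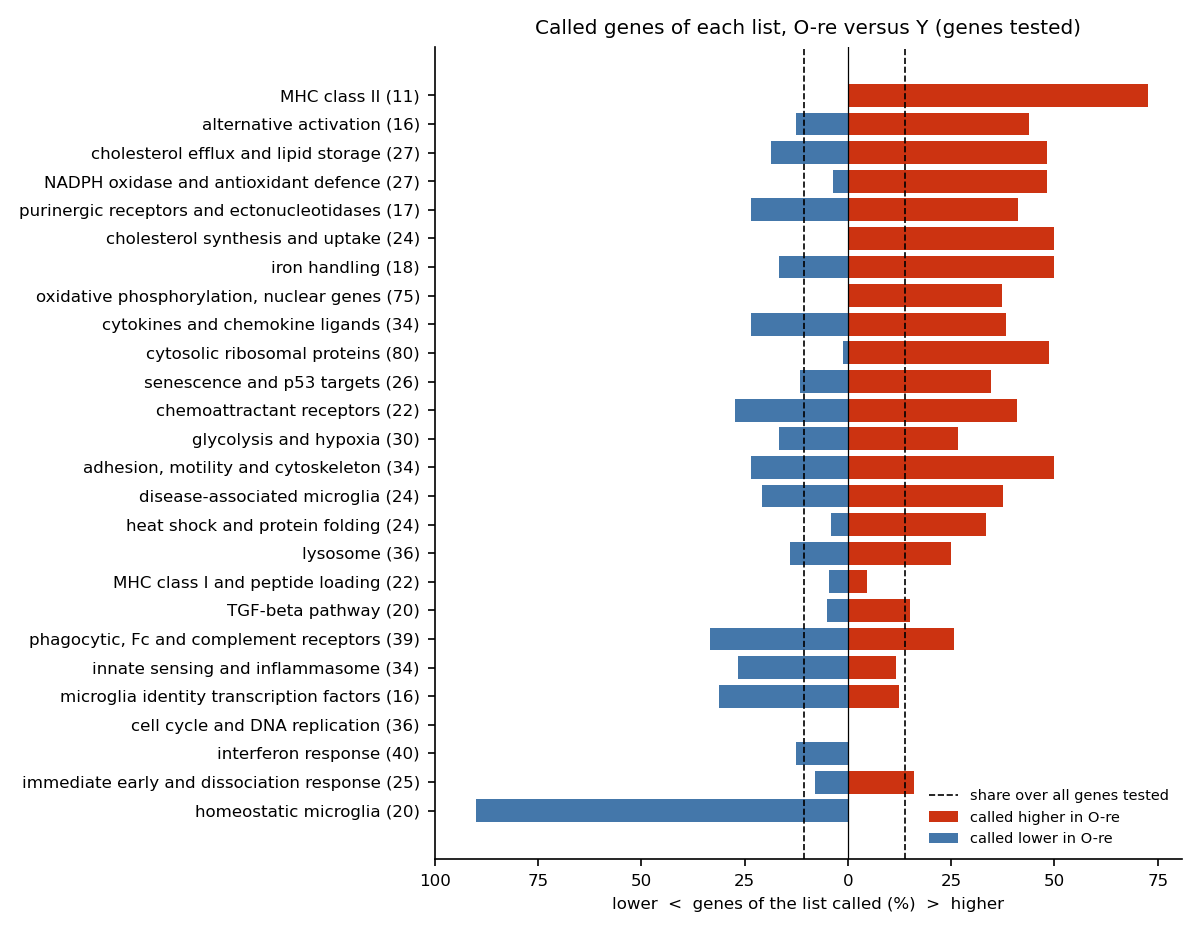
Share of the tested genes of each function list (number tested in brackets) called higher (right) or lower (left) in O-re against Y by edgeR. Dashed lines mark the shares over all genes tested, 13.9% higher and 10.6% lower. Homeostatic genes reach 90% lower, and sterol genes 50% higher.

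**Figure D4:**
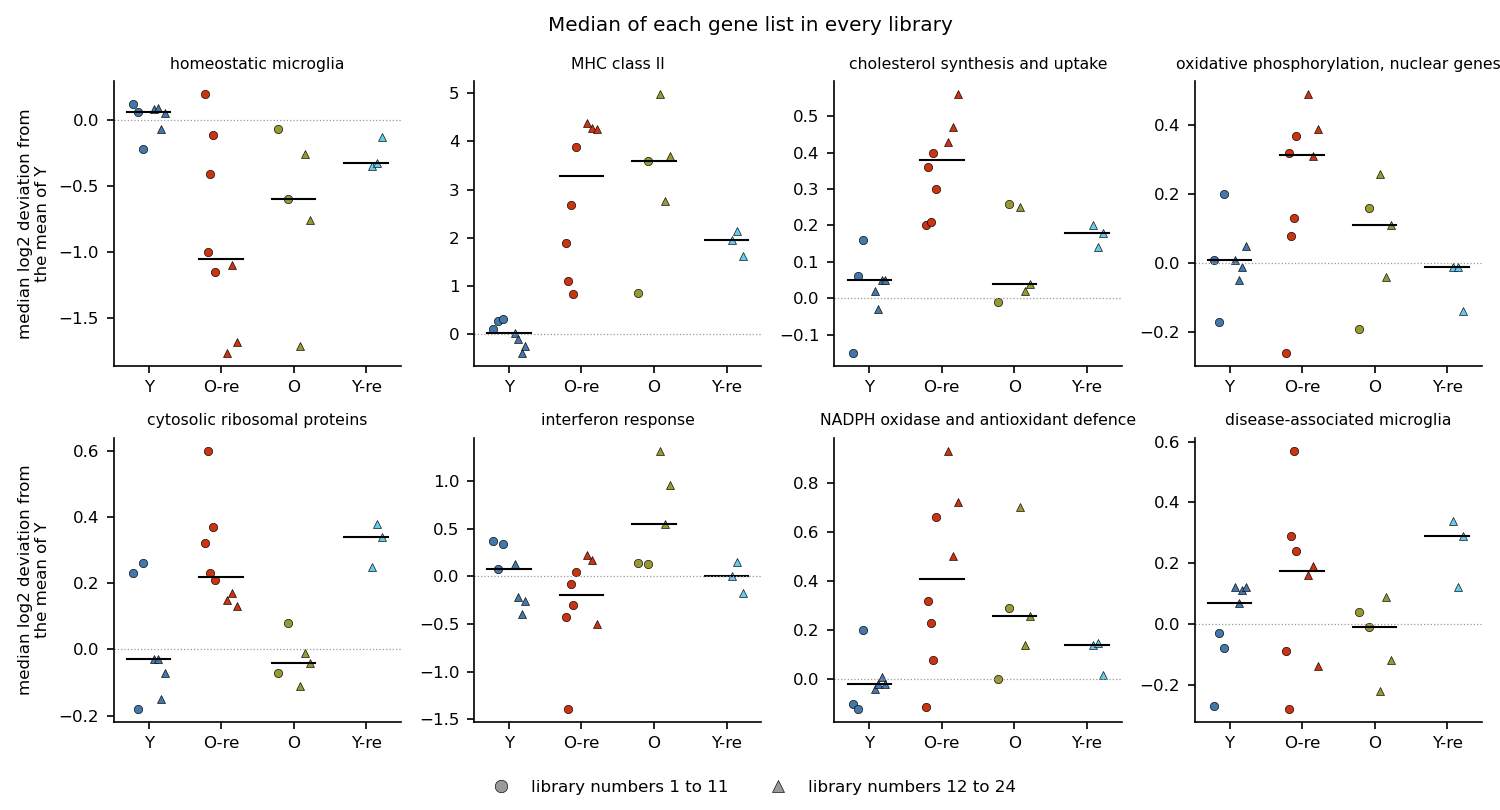
Median over the genes of each list of the log2 CPM less the mean of Y, in each library of the 4 groups (circles: library numbers 1 to 11, triangles: 12 to 24, lines: group medians). The sterol medians of all 8 O-re libraries (0.20 to 0.56) lie above those of the 7 Y libraries (-0.15 to 0.16), whereas for homeostatic genes O-re replicate 1 (0.19) lies above and replicate 4 (-0.12) within the Y range.

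Among cytokines and chemokines, 13 of 34 genes rose and 8 fell (61.8% called, against 24.5% of all genes). The median was 0.24, and 5 fell without O-re replicate 6. The classical inflammatory cytokines did not pass: Tnf (-0.18), Il1b (0.20) and Il6 (0.05). Il18, whose product is released by inflammasomes, was lower in every O-re library, with 19.2 to 25.8 CPM (median 20.2) in Y and 8.87 to 17.9 CPM (median 12.9) in O-re (log2 fold change -0.72 ± 0.13, adjusted p = 0.00082). Tnfsf13b, the B cell survival factor BAFF, was higher in every one, with 11.3 to 23.8 CPM (median 14.4) in Y and 24.6 to 60.6 CPM (median 39.1) in O-re (log2 fold change 1.19 ± 0.16, adjusted p = 0.00011), and so was Tnfsf8, the ligand of CD30, with 2.28 to 10.1 CPM (median 3.36) in Y and 11 to 23.2 CPM (median 18.6) in O-re (1.91 ± 0.22). Cxcl14, a chemokine made constitutively in many tissues, also rose without overlap, with 5.04 to 8.59 CPM (median 7.11) in Y and 9.74 to 70.0 CPM (median 24.6) in O-re (2.09 ± 0.34). Vegfa (3.30), the vascular growth factor, Ccl7 (2.40), a monocyte attractant, and Cxcl16 (0.54) rose with overlap.

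Receptors for attractants changed in 15 of 22 cases (68.2%, against 24.5% of all genes), 9 upward and 6 downward. Ackr3, an atypical receptor that scavenges CXCL12 (chr1:90203980-90216751), lay at 3.55 to 9.25 CPM (median 6.09) in Y and 0 to 1.58 CPM (median 0.522) in O-re (log2 fold change -3.22 ± 0.60, adjusted p = 0.00087), and Fpr2, the formyl peptide receptor that also binds amyloid, at 0.0209 to 0.790 CPM (median 0.204) in Y and 0.799 to 14.4 CPM (median 2.47) in O-re (log2 fold change 4.17 ± 0.57, adjusted p = 0.00011). Neither overlapped between groups. Ccr2 (3.31), Ccr1 (3.05) and Cxcr4 (2.63) rose, receptors known from monocytes and stem cells, and Ccr2 is on the monocyte marker list.

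Pattern recognition and inflammasome genes leaned downward, with 4 of 34 higher and 9 lower (38.2% called, against 24.5% of all genes, median -0.15). Without Y replicate 3 and O-re replicate 1, 15 were lower. Pycard, the ASC adaptor on which inflammasomes assemble, was lower in every O-re library, with 109 to 151 CPM (median 126) in Y and 66.8 to 103 CPM (median 93.2) in O-re (log2 fold change -0.47 ± 0.08, adjusted p = 0.00060). Casp4 (-0.86), which senses cytosolic lipopolysaccharide, Ly86 (-0.86), the partner of a Toll-like receptor homologue, and Tlr3 (-0.89), the receptor for double-stranded RNA, fell. Tlr13, which reads bacterial ribosomal RNA, rose a little without overlap, with 283 to 352 CPM (median 337) in Y and 378 to 512 CPM (median 406) in O-re (log2 fold change 0.35 ± 0.09, adjusted p = 0.0088). Tlr4 (0.33), Tlr2 (-0.14) and Myd88 (-0.03) did not pass.

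Alternative activation genes, a programme that interleukin-4 induces in macrophages, rose in 7 of 16 cases and fell in 2 (median 0.55). Called genes were 56.2% of this list, against 24.5% of all genes. Mgl2, a galactose-type lectin, lay at 0.406 to 1.57 CPM (median 0.811) in Y and 1.82 to 16.6 CPM (median 6.32) in O-re (log2 fold change 3.07 ± 0.41, adjusted p = 9.9e-05) and did not overlap. Arg1, arginase, ranged 0.528 to 18.6 CPM (median 0.961) in Y and 2.57 to 619 CPM (median 74.3) in O-re (log2 fold change 4.60 ± 1.37, adjusted p = 0.018), with O-re replicate 1 within the Y range and replicates 6 to 8 at 619, 243 and 589 CPM. Chil3, a chitinase-like protein, rose as well (4.18). Without O-re replicate 5 the calls of Arg1 and Chil3 were lost and 4 genes of the list rose.

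Adhesion and motility genes changed in 25 of 34 cases (73.5%, against 24.5% of all genes), 17 upward and 8 downward (median 0.19). Falls numbered 5 without Y replicate 4 or any of O-re replicates 5 to 8. Vcl, vinculin, which ties integrins to actin, lay at 6.75 to 9.44 CPM (median 8.73) in Y and 10.9 to 25.6 CPM (median 19.1) in O-re (log2 fold change 1.13 ± 0.18, adjusted p = 0.00040), and Itga9, an integrin for tenascin and osteopontin, at 29.9 to 53.9 CPM (median 44.1) in Y and 60.6 to 91.4 CPM (median 71.3) in O-re (log2 fold change 0.72 ± 0.13, adjusted p = 0.00075). Both were above the Y range throughout. Cd44 (2.75), Itga4 (2.66) and Vim (2.23) rose more, with groups that overlapped. Of 17 purinergic genes, 7 rose and 4 fell (64.7% called). P2ry14, the receptor for UDP-glucose, was higher in every O-re library, with 1.12 to 2.87 CPM (median 1.62) in Y and 3.82 to 7.66 CPM (median 5.79) in O-re (log2 fold change 1.66 ± 0.38, adjusted p = 0.0038), like Nt5e above. Adora1 (-2.12) and Adora3 (-1.33), adenosine receptors, fell beside P2ry12, and P2rx4 (0.39), an ATP-gated channel, rose.

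No cell division gene passed the test: of 36, 0 were called by edgeR in either direction (0 higher and 2 lower at an unadjusted p under 0.05, 0 higher and 1 lower by DESeq2, 0 and 0 by limma voom). Mki67, a marker of cycling cells, lay at 109.6 to 298 CPM (median 189) in Y and 26.2 to 324 CPM (median 154) in O-re (-0.17 ± 0.29) and Top2a, a topoisomerase of dividing cells, at -0.28. Of 26 senescence and p53 genes, 9 were higher and 3 lower (46.2% called, against 24.5% of all genes, median 0.21). Cdkn2a, which encodes p16 and the ARF protein, lay at 1.80 to 3.44 CPM (median 2.46) in Y and 4.06 to 9.08 CPM (median 6.81) in O-re (log2 fold change 1.39 ± 0.23, adjusted p = 0.00048), with every O-re library above every Y library. Against Y it differed by 0.01 in O and 2.07 in Y-re. The p53 targets Aen (0.63), Cdkn1a (0.62), Zmat3 (0.60), Ccng1 (0.45) and Bax (0.42) rose by smaller amounts, and Gadd45b fell (-0.77).

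Tissue dissociation is known to induce immediate early and heat shock genes. Of 25 immediate early genes, 4 rose and 2 fell (24.0% called, near the 24.5% of all genes, median -0.26), with Fos (0.19), Egr1 (-0.62) and Jun (-0.50) not past the test. Nr4a2 rose (3.10), and Klf2 fell (-1.16). Of 24 heat shock and protein folding genes, 8 rose, Hsph1 (0.73) and Hspa8 (0.36) among them, and 1 fell (37.5% called). The fall was that of the small heat shock gene Hspb1 (-2.01), which was called in 3 of the 15 fits that left out 1 compared library. The rises numbered 5 without O-re replicate 6.

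The difference between O-re and Y depended on the run of library numbers in 259 genes (1.38%) by edgeR's adjusted p. At an unadjusted p under 0.05 there were 4031 of 18736, and limma voom called 1002. The adjusted count therefore does not show that the difference was alike between runs in the other genes. Of the 6 genes named for the smallest adjusted p, 5 are given. Ccl2, the main attractant of monocytes, had the smallest adjusted p: O-re against Y was -0.23 in libraries 1 to 11 and 2.28 in libraries 12 to 24 (difference 2.51 ± 0.26, adjusted p = 0.00015). O-re replicates 6 to 8 stood at 350.0, 184 and 232 CPM, replicates 1 to 5 at 53.5 to 94.5 CPM, and Y at 45.4 to 86.0 CPM (median 56.8). Irf4, a factor of dendritic cells and alternatively activated macrophages, was -0.87 in libraries 1 to 11 and 0.65 in libraries 12 to 24. Gt(ROSA)26Sor, a locus of non-coding transcripts, was -0.76 in libraries 1 to 11 and 0.69 in libraries 12 to 24. Cpq, a secreted peptidase, was 0.14 in libraries 1 to 11 and -1.04 in libraries 12 to 24, and Siae, a sialic acid esterase, 0.40 in libraries 1 to 11 and -0.57 in libraries 12 to 24. For the lists, the median in libraries 12 to 24 was farther from 0 than in 1 to 11 for homeostatic (-1.57 against -0.37), class II (4.87 against 1.61), antioxidant (0.76 against 0.30) and monocyte genes (4.92 against 1.22). In other lists the median had opposite signs in the runs. Among them were disease-associated (-0.18 in 12 to 24 against 0.34 in 1 to 11), lysosomal (-0.14 against 0.14), cytokine (0.68 against -0.08) and uptake receptor genes (-0.22 against 0.03). These differences between list medians were not tested.

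**Figure D5:**
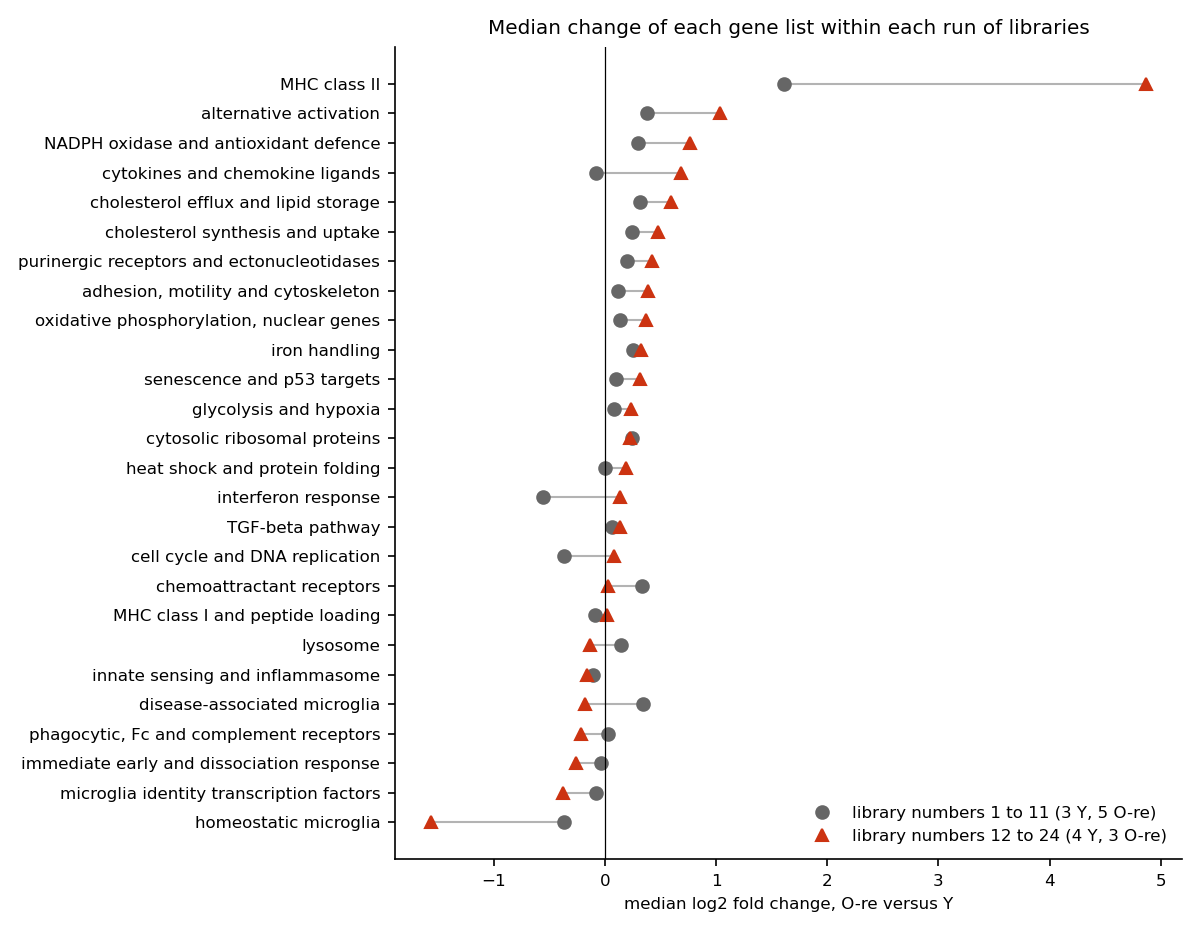
Median log2 fold change of O-re over Y (horizontal axis) of each function list within libraries 1 to 11 (circles) and within libraries 12 to 24 (triangles). For ribosomal protein genes both lie at nearly the same value (0.24 and 0.22), and for class II genes they lie far apart (1.61 and 4.87).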

How the data were processed

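RNA of brain microglia was sequenced from poly(A) libraries made with a stranded kit, as single reads of 50 nt, per the labels' protocols. Reads were checked with FastQC 0.11.5 and processed with STAR and RSEM on GRCm38, per the submitters' processing notes, with no version of STAR or RSEM given. The deposited tables give expected counts, which RSEM estimates by sharing reads between genes, and TPM for 53090 genes. Of the expected counts, 87.26% were whole (within 1e-06), and all were rounded. TPM as deposited by the authors was used only for marker genes, as sums and as levels of single markers.

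edgeR 4.0.16 in R 4.3.3 filtered genes with filterByExpr (18736 tested), scaled libraries by TMM and fitted all 23 libraries by quasi-likelihood with group and run of library numbers (1 to 11, 12 to 24). Calls are at Benjamini-Hochberg adjusted p under 0.05. The difference between runs came from a fit with 1 mean for each group and run. The scripts were tested on simulated data. No libraries held identical values.

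Named genes are the 12 largest rises and 12 largest falls among called genes with a mean of at least 5 CPM, called with the same sign in all 15 fits leaving out 1 compared library and of the same sign in both runs, without predicted genes, Riken clones and pseudogenes. To these were added Csf1r, members of described lists and the 6 genes with the smallest adjusted p for the run difference. Results on some single genes are not reported here. The members and lists were chosen with earlier results of these data known. Lists were described by counts and medians, with no set test. Alternatives were DESeq2 1.42.0, limma voom 3.58.1 with sample weights, other scalings, filters and samples, glmTreat at 1.5-fold and leaving out libraries. Leaving out Y replicate 3 with O-re replicate 1 was chosen after seeing the data. Gene coordinates are from GENCODE on GRCm38, for the 729 of 851 genes whose identifier has the same version there.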

Additional observations from a re-analysis of the deposited data

Results flagged for a closer look

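Within a group of 7 or 8 libraries, a single library was set far from the others (by Dixon's ratio of the gap to the range) in 50 of 384 groups of values looked at, over the genes named above and the marker sums. For independent, normally distributed values chance gives about 1 in 20. The values here were untransformed and came from the same 15 libraries, so the share expected by chance is not known.

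Most of them concern Y replicate 3, the library that stood apart on the second principal component. Its level exceeded the other 6 Y libraries in class II genes, with Cd74 248, H2-Aa 106, H2-Ab1 111 and H2-Eb1 88.0 CPM, and in genes of monocytes and recruited or alternatively activated macrophages, with F10 9.04, Lgals3 119, Ccl7 16.2, Ccr2 45.8, Cxcr4 106, C3 68.9, Arg1 18.6, Chil3 152, Itga4 45.6, Cd44 61.1, Vim 423, Ly6c2 7.76 and Ms4a7 34.9 CPM. The other 6 reached at most 31.1 CPM for H2-Aa and 1.23 CPM for Ly6c2. Further high values in that library were Ctsk 1.98, Atp8b4 2.53, AA467197 1.71, Papss2 3.86, Gpr171 3.22, Pltp 55.8, Fcgrt 99.7, Bax 72.6, Cox7a2 40.8, Hmox1 160.0, Gsr 31.7, Txn1 53.7 and Nr4a2 9.78 CPM. It was lower than the other 6 in Cd9 822, Tlr4 26.9, Ccng1 72.3 and Aen 7.67 CPM. Its summed monocyte markers, 586 TPM, were the highest of Y.

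O-re replicate 1 was higher than the rest of its group in Tfe3 175 and Klf2 268 CPM. O-re replicate 2 was lower than the rest of its group in Itgax 48.6 and H2-DMb1 56.2 CPM. O-re replicate 2 was higher than the rest of its group in Slc7a2 40.5, Gpi1 522 and Blvrb 46.2 CPM. O-re replicate 5 was higher than the rest of its group in Tlr13 512 CPM. O-re replicate 6 was higher than the rest of its group in Il1b 1520.0, Fpr2 14.4 and Srxn1 79.5 CPM. Y replicate 1 was lower than the rest of its group in Acaca 19.8 CPM. Y replicate 1 was higher than the rest of its group in Psmb10 62.3 CPM. Y replicate 2 was higher than the rest of its group in Myd88 103 CPM. The neutrophil markers in Y replicate 5 summed to 618 TPM, against 322 to 434 TPM in the others of its group. The erythroid markers in O-re replicate 7 summed to 251 TPM, against 17.1 to 86.6 TPM in the others of its group.

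In 15 named genes the log2 fold change of O-re over Y differed between the runs of library numbers by edgeR's test of that difference, given as libraries 12 to 24 less 1 to 11 with adjusted p from 0.00015 to 0.049. It was more positive in libraries 12 to 24 for Ccl2 2.51, Gt(ROSA)26Sor 1.45, Irf4 1.53, Cd74 3.32, H2-Aa 4.17, Ccl7 4.16 and Ccr2 4.38, and more negative for Tmc7 -3.26, Klhl3 -2.74, Mgll -2.60, Cpq -1.18, Siae -0.98, Trem2 -1.08, Ly86 -1.12 and Mertk -1.23. The summed monocyte markers of the 3 O-re libraries of that run were 1879 to 2801 TPM, against 228 to 1130 TPM in the 5 of the other run. Their part in these differences was not tested.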

How the results depend on the processing

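The count of 4587 genes called (2608 higher, 1979 lower) was within 1.5 times under RLE and upper-quartile scaling, other filters, DESeq2, robust dispersion and a fit of only the 15 libraries. Upper-quartile scaling gave 1936 higher and 2479 lower. Without the run term 2847 were called, 1739 higher and 1108 lower. limma voom called 6406, with 3390 higher and 3016 lower. Against a 1.5-fold change 710 passed (459 higher, 251 lower). Libraries 1 to 11 fitted alone (3 Y, 5 O-re) gave 3 calls (1 higher, 2 lower), and libraries 12 to 24 alone (4 Y, 3 O-re) gave 7898 (4144 higher, 3754 lower). Leaving out 1 library gave 3390 (without O-re replicate 6) to 5886 (without O-re replicate 1) calls, 1982 to 3475 higher and 1399 to 2411 lower. Without both Y replicate 3 and O-re replicate 1, chosen after seeing the data, 6500 were called (3434 higher, 3066 lower).

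The difference between runs was the least stable result. Against 259 genes, limma voom called 1002, a fit of only the 15 libraries 288, and leaving out 1 library 7 (without O-re replicate 8) to 1260 (without O-re replicate 5). Outside 1.5 times were also the fits without O-re replicates 1, 2, 3, 4, 6 or 7 (109, 865, 64, 67, 8 and 454) and without Y replicates 1, 3, 4, 5, 6 or 7 (619, 15, 22, 8, 90 and 12). The cause was not tested.

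Of 182 named genes, 150 were called, and 6 of these lost the call when 1 library was left out: Arg1, Chil3, Ccl2, Hspb1, Ifit2 and Stat2. No direction turned in those fits. Ccl2 turned to -0.23 in libraries 1 to 11 alone, and in libraries 12 to 24 alone Gt(ROSA)26Sor turned to 0.70, Irf4 to 0.66 and Cst7 to -0.68. Without the run term 11 named calls were lost, Sall1 (-1.07) and Adgrg1 (-1.25) among them. limma voom lost 4 and gained 11, with Tmem119 (-0.81) and Trem2 (-0.70) called. No paired analysis was possible because the replicate numbers within a group follow the order of accession and pair no libraries; the run of library numbers was the only block.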
